A study of Mus musculus with 3 samples.

Results

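Mouse embryonic fibroblasts kept for 4 days in a medium named bC6FAE[10] were compared with the same cells kept in bCFAE. Both groups were chosen by their names in the count table: 4 wells carried the name bC6FAE[10] and 3 the name bCFAE, so 7 of the 274 columns of the table entered the comparison. All 7 wells came from 1 plate, which held 30 wells named for 8 media, and the labels of the plate give wild-type fibroblasts from mouse embryos. The plate's title names compounds of a library in a medium called CFAE+8, whereas these 7 wells carry other medium names and no compound name. The study measured the wells of 3 plates by DRUG-seq2, in which the RNA of each well receives a barcode during reverse transcription and the wells of a plate are then pooled into 1 library. The letters and numbers in the names of the media are not explained by the labels, so the media are called by name. Wells of 2 further media of the same plate are brought in where they bear on a result: bC6FAE[2] with 3 wells and bC8FAE with 5. Nothing in the labels says whether wells of 1 medium were separate cultures or came from separate embryos, so the p-values measure the spread between wells of 1 plate, which may be technical.

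Fibroblasts make and remodel the matrix of connective tissue, and in culture many of them take on a contractile, smooth-muscle-like state with actin stress fibres, in which TGF-beta and mechanical tension take part. Wnt ligands act through beta-catenin and switch on their own inhibitors, such as Notum and Nkd1, so that the inhibitors are commonly read as targets of the pathway. BMP ligands of the TGF-beta superfamily act through SMAD proteins and induce the Id and Msx transcription regulators, which are expressed in undifferentiated mesenchyme of the embryo.

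Total counts per well were 530273, 520908, 431109 and 430659 in bC6FAE[10] and 664817, 726228 and 429866 in bCFAE. The means were 478237 ± 54812.6 in bC6FAE[10] and 606970 ± 156420 in bCFAE (SD, n = 4 and 3), and the ranges overlapped. A two-sided exact permutation test gave p = 0.286, where the smallest value that 4 against 3 wells allow is 0.0571. Mitochondrially encoded genes took 0.988% to 1.02% of the counts in bC6FAE[10] and 0.698% to 0.825% in bCFAE, and ribosomal protein genes took 19.9% to 20.6% in bC6FAE[10] and 18.8% to 19% in bCFAE. These shares moved with the medium, and their part in the results below was not tested. The labelled cell type was checked against its markers, and 9 of 9 fibroblast markers had counts in both media, with a summed level of 7894 to 9209 CPM (counts scaled to the total of the well) in bC6FAE[10] and 6121 to 6644 CPM in bCFAE. The sum leans on Thy1, which averaged 4181 CPM in bC6FAE[10] and 977 CPM in bCFAE. Vim went the other way, with 1980 and 3277 CPM, so the sum does not describe the markers as a group. Of these 9 markers, 3 rose and 1 fell in the test described next. Epithelial markers summed to 36.5 to 67.3 CPM in bC6FAE[10] and 61.7 to 90.7 CPM in bCFAE, with Cdh1 and Epcam at 0 in every well of both media. Macrophage markers summed to 25.5 to 53.4 CPM in bC6FAE[10] and 48.9 to 52.3 CPM in bCFAE, with Ptprc at 0 in both. Endothelial markers summed to 4.64 to 17.0 CPM in bC6FAE[10] and 2.33 to 4.51 CPM in bCFAE, with Pecam1 and Tek at 0 in both.

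Of 6985 genes tested with edgeR's quasi-likelihood test on the counts, 953 (13.6%) differed between bC6FAE[10] and bCFAE at an adjusted p under 0.05. Of these, 530 (7.59%) were higher and 423 (6.06%) were lower in bC6FAE[10], and 287 (4.11%) were higher and 127 (1.82%) lower by at least 2-fold. Among changes of at least 2-fold, rises outnumbered falls. CPM values of the 2 groups of wells did not overlap for 1732 genes (24.8%), with bC6FAE[10] higher in 729 (10.4%) and lower in 1003 (14.4%), and 883 genes (12.6%) met both conditions. In these bulk wells, fewer cells of a kind and less RNA per cell cannot be told apart.

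**Figure D1:**
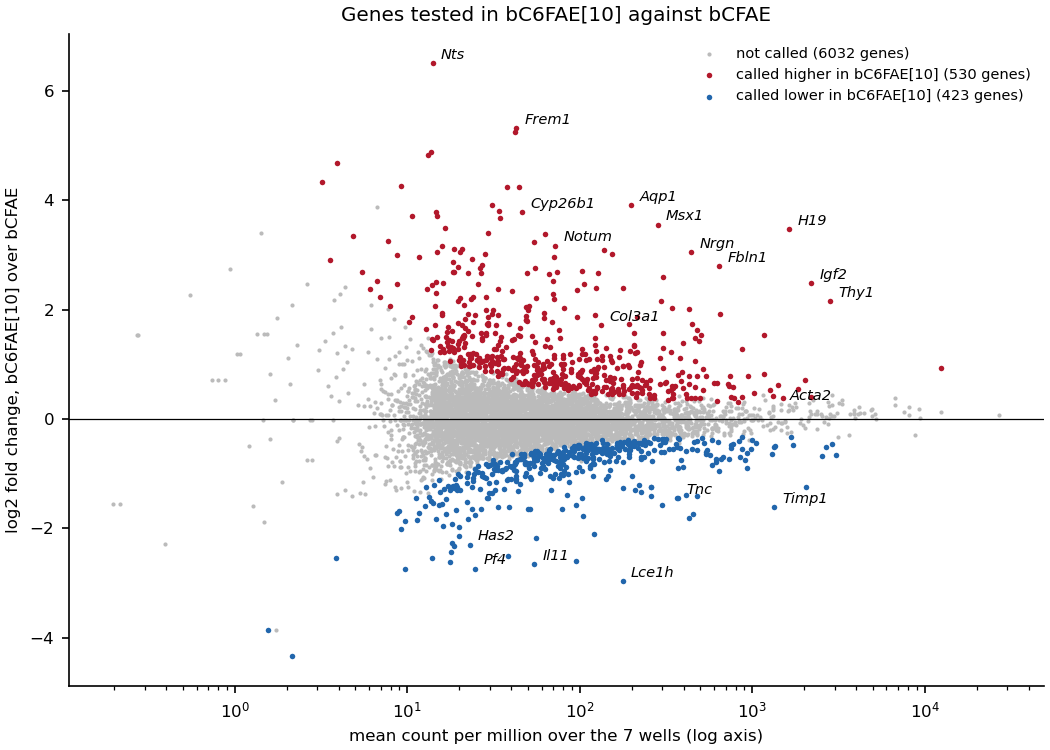
Each point is 1 of the 6985 genes tested: the horizontal axis gives its mean level over the 7 wells in CPM on a log axis and the vertical axis its log2 fold change, bC6FAE[10] over bCFAE. The 530 genes that rose and the 423 that fell are coloured; at 2-fold and beyond, 287 points lie above 0 and 127 below.

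The largest rises were in genes that were almost silent in bCFAE. Nts, which encodes the neuropeptide precursor of neurotensin (chr10:102481756-102490486, mm10, minus strand), had 28.3, 21.1, 23.2 and 25.5 CPM in bC6FAE[10] wells and 0 in all 3 bCFAE wells. Its 47 counts against 0 make it at least 14.9-fold higher in bC6FAE[10], with 3 counts over the group as the floor. Frem1, an extracellular matrix protein of the embryonic basement membrane (chr4:82897920-83052339), had 86.7, 69.1, 76.5 and 62.7 CPM in bC6FAE[10], against 0, 2.75 and 2.33 CPM in bCFAE. Because only 3 counts of Frem1 were seen in bCFAE, its fold is given as the ratio of bCFAE to bC6FAE[10], 0.0222, with a 95% counting interval of 0.00452 to 0.0662. The collagen gene Col26a1 gave a ratio of bCFAE to bC6FAE[10] of 0.0233 in the same way, with an interval of 0.00475 to 0.0697. Intervals and floors cover counting error only. The largest rises and falls were named only where the wells of the 2 media do not overlap, so their lack of overlap follows from the choice.

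Msx1, Aqp1 and Nrgn were large rises with counts in every well of both media. Msx1, a homeobox repressor induced by BMP (chr5:37820485-37824583), had 477, 403, 471 and 506 CPM in bC6FAE[10] and 33.1, 46.8 and 41.9 CPM in bCFAE. The wells of each medium lay close together and far from those of the other, with a log2 fold change of 3.55 ± 0.22 (SE; edgeR adjusted p = 5.9e-20). Aqp1, a water channel (chr6:55336432-55348555), had 292, 361, 334 and 334 CPM in bC6FAE[10] and 15.0, 28.9 and 23.3 CPM in bCFAE. Nrgn, a calmodulin-binding protein known from neurons, had 620, 683, 830 and 699 CPM in bC6FAE[10] and 93.3, 90.9 and 76.8 CPM in bCFAE. Its log2 fold change of 3.05 ± 0.15 (SE) had an edgeR adjusted p of 1.9e-24. Besides Nts, Frem1, Col26a1 and Aqp1, the 12 largest rises were Amelx, Adamts15, Wdr86, Pcsk1n, Draxin, Fbxo2, Gsta2 and the retinoic acid hydroxylase gene Cyp26b1. Msx1 and Nrgn were not among the 12. Amelx and Adamts15 had 1 count each over the bCFAE wells and Gsta2 had 3. Their ratios of bCFAE to bC6FAE[10] were 0.0233 (95% counting interval 0.000578 to 0.137), 0.0244 (0.000605 to 0.144) and 0.0643 (0.0128 to 0.199). Among the 12, Pcsk1n shares exon sequence with Eras and Gsta2 belongs to a family of near-identical genes, so their reads could have been split or shared in counting.

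The fetal growth factor Igf2 and the noncoding RNA H19, which lie next to each other on chromosome 7 and are imprinted, rose together. H19 (chr7:142575529-142578143) had 2716, 2703, 2392 and 2870 CPM in bC6FAE[10] and 247, 256 and 240 CPM in bCFAE. Igf2 (chr7:142650766-142666816) had 3195, 3559, 3273 and 3413 CPM in bC6FAE[10] and 660, 730 and 463 CPM in bCFAE. Each gene separated the 2 media by a wide gap, with log2 fold changes of 3.48 ± 0.22 (SE; edgeR adjusted p = 3.2e-19) for H19 and 2.48 ± 0.21 (SE; edgeR adjusted p = 1e-14) for Igf2, whose exons overlap Igf2os. The basal-medium wells of the plate averaged 4674 CPM of H19 and 5121 CPM of Igf2, and the wells named MEF 5036 and 4927 CPM. Levels in bC6FAE[10] thus lay above those of bCFAE and under the basal mean; the difference from basal medium was not tested. Values of further imprinted genes, chosen after their values were seen and not a list, are given without a reading of the class. Mest rose by a log2 fold change of 2.69 ± 0.31, the cell cycle inhibitor Cdkn1c by 1.90 ± 0.26, Nnat by 1.18 ± 0.20 and the Notch-related ligand Dlk1 by 0.94 ± 0.21 (SE). Values for Peg3 (0.62 ± 0.43), Meg3 (0.30 ± 0.21), Grb10 (0.05 ± 0.17) and Ndn (-0.02 ± 0.15) did not pass the test, nor did Igf2r (1.07 ± 0.42). Plagl1 rose by 2.37 ± 0.67, but without the first bCFAE well it stood at 1.95 and no longer passed, and with DESeq2 it did not pass either. Mest shares exons with Copg2, and Nnat and Meg3 also overlap other transcripts.

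The largest falls were led by Lce1h, a late cornified envelope gene of the skin's outer layer (chr3:92763215-92765065). It had 33.9, 38.4, 27.8 and 76.6 CPM in bC6FAE[10] and 403, 300 and 358 CPM in bCFAE, with no overlap and a log2 fold change of -2.96 ± 0.25 (SE; edgeR adjusted p = 1.2e-14). Lce1g and Lce3a fell as well, by 1.64 ± 0.31 and 2.27 ± 0.47 on the log2 scale (SE). The Lce genes are near-identical copies in 1 cluster on chromosome 3, and their reads may have been split among them. Mcpt8, a mast cell and basophil type protease, had 20.7, 32.6, 30.2 and 32.5 CPM in bC6FAE[10] and 185, 173 and 188 CPM in bCFAE. Il11, a cytokine of the interleukin-6 family that fibroblasts secrete in fibrosis (chr7:4772373-4782859), had 15.1, 23.0, 9.28 and 16.3 CPM in bC6FAE[10] and 120, 106 and 90.7 CPM in bCFAE. Both were lower in each bC6FAE[10] well than in any bCFAE well, with log2 fold changes of -2.60 ± 0.19 for Mcpt8 and -2.66 ± 0.26 for Il11 (SE). The platelet chemokine gene Pf4, the calcium release channel gene Itpr3, the hyaluronan synthase gene Has2 and the EGF receptor ligand gene Hbegf were also among the 12 largest falls, with Sh2d5, Il18rap, Gm12603 and 1700012B09Rik. Sh2d5 overlaps Kif17 and Has2 overlaps Has2os.

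Most Wnt feedback and target genes rose: of 24 tested, 14 rose and 1 fell, with a median log2 fold change of 1.03, against 7.59% of all genes rising and a median of -0.01 over all genes. Notum, which removes the lipid from Wnt ligands (chr11:120653788-120661175), had 121, 109, 97.4 and 139 CPM in bC6FAE[10] and 12, 15.1 and 11.6 CPM in bCFAE. Nkd1, an intracellular inhibitor, had 294, 276, 276 and 302 CPM in bC6FAE[10] and 78.2, 112 and 114 CPM in bCFAE. Neither gene overlapped between media, and their log2 fold changes were 3.17 ± 0.29 and 1.56 ± 0.17 (SE). The secreted inhibitors Wif1 (2.87 ± 0.55) and Sfrp1 (2.05 ± 0.31) and the inhibitor Nkd2 (1.79 ± 0.28) rose too. So did the Dickkopf family gene Dkk3 (1.78 ± 0.20). The ligand gene Wnt4, outside this list, had 124, 159, 146 and 216 CPM in bC6FAE[10] and 22.6, 30.3 and 20.9 CPM in bCFAE. Axin2, the most used readout of the pathway, had 24.5, 19.2, 34.8 and 27.9 CPM in bC6FAE[10] and 9.03, 19.3 and 27.9 CPM in bCFAE. Its wells overlapped, and its log2 fold change of 0.61 ± 0.35 (SE) did not pass (edgeR adjusted p = 0.29). The single member that fell, near the share of 6.06% over all genes, was Cd44, the hyaluronan receptor, at -1.77 ± 0.17.

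Sp5, a transcription factor gene that beta-catenin and TCF/LEF factors switch on (chr2:70474923-70477729), had 50.9, 80.6, 83.5 and 85.9 CPM in bC6FAE[10] and 19.6, 16.5 and 18.6 CPM in bCFAE. The first bC6FAE[10] well was the lowest of its medium and still above every bCFAE well, and the log2 fold change was 2.07 ± 0.30 (SE; edgeR adjusted p = 2e-07). Its promoter is shown because among the 15 of 24 tested Wnt genes that had a promoter to search, Sp5 was the one that held the TCF/LEF motif CTTTGAT. The motif was searched on both strands in RefSeq promoters of build GRCm38.p6 that run from 250 bases before to 50 after a gene's start. Sp5 lies on the plus strand, the window is chr2:70474673-70474972, and capitals mark the motif, which begins at position -104 from the start.
Sp5: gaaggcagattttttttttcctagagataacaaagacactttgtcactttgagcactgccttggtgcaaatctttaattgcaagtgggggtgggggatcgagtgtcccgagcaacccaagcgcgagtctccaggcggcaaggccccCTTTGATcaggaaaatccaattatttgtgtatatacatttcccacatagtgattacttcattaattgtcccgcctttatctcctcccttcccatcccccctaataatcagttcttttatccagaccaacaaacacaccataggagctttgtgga
Of all 27025 promoters, 3.72% held the motif, as did 2.47% of the 5340 tested genes with a promoter, 2.11% of the 380 such genes that rose and 1 of the 15 Wnt genes searched. A match is a description of letters, not a binding site or a cause.

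BMP ligands, inhibitors and targets rose in 9 of 15 tested and fell in 1, where 7.59% of all genes rose and 6.06% fell, with a median log2 fold change of 0.71. Besides Msx1, the ligand gene Bmp4 had 104, 78.7, 109 and 118 CPM in bC6FAE[10] and 16.5, 12.4 and 23.3 CPM in bCFAE, though its exons overlap Gm15217. The BMP target Atoh8 had 128, 169, 118 and 142 CPM in bC6FAE[10] and 37.6, 45.4 and 32.6 CPM in bCFAE. All bC6FAE[10] wells of both genes lay above all bCFAE wells, with log2 fold changes of 2.65 ± 0.28 for Bmp4 and 1.87 ± 0.21 for Atoh8 (SE). The inhibitors of DNA binding moved less: Id1 rose by 0.58 ± 0.12 and Id3 by 0.71 ± 0.12 on the log2 scale (SE). The single fall, near the share over all genes, was Fst, a secreted inhibitor of activin and BMP, at -0.95 ± 0.19.

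Of 14 interstitial collagen genes tested, 9 rose and 0 fell, against 7.59% and 6.06% of all genes, with a median log2 fold change of 0.94. Col6a1, a chain of the beaded-filament collagen VI, had 1035, 920, 935 and 894 CPM in bC6FAE[10] and 289, 227 and 258 CPM in bCFAE. It did not overlap between media, and it rose by a log2 fold change of 1.92 ± 0.14 (SE; edgeR adjusted p = 2.1e-17), with Col6a2 at 2.04 ± 0.15 and the fibrillar collagen gene Col3a1 at 1.72 ± 0.23. The 2 chains of collagen I, the main collagen of fibroblasts, did not pass, with 0.39 ± 0.16 for Col1a1 (edgeR adjusted p = 0.094) and -0.21 ± 0.15 for Col1a2. Of 36 matrix assembly and small proteoglycan genes tested, 9 rose and 6 fell, against the same shares of all genes, 7.59% and 6.06%. The microfibril-associated gene Fbln1 had 999, 881, 984 and 1184 CPM in bC6FAE[10] and 143, 145 and 170 CPM in bCFAE. It rose by 2.79 ± 0.16 (SE), and the small leucine-rich proteoglycan genes Lum and Dcn rose by 3.23 ± 0.44 and 2.95 ± 0.37. The related proteoglycan gene Bgn went the other way, with 224, 259, 304 and 309 CPM in bC6FAE[10] and 802, 745 and 714 CPM in bCFAE. Tnc, a matrix protein of wounds, had 224, 202, 211 and 193 CPM in bC6FAE[10] and 623, 596 and 540 CPM in bCFAE. Bgn and Tnc fell by 1.42 ± 0.14 and 1.45 ± 0.15 on the log2 scale (SE) with no overlap of wells, and Fbln2 (-1.58 ± 0.14) and fibronectin, Fn1 (-0.70 ± 0.13), fell as well. Tnc and Fn1 share exon sequence with other transcripts.

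**Figure D2:**
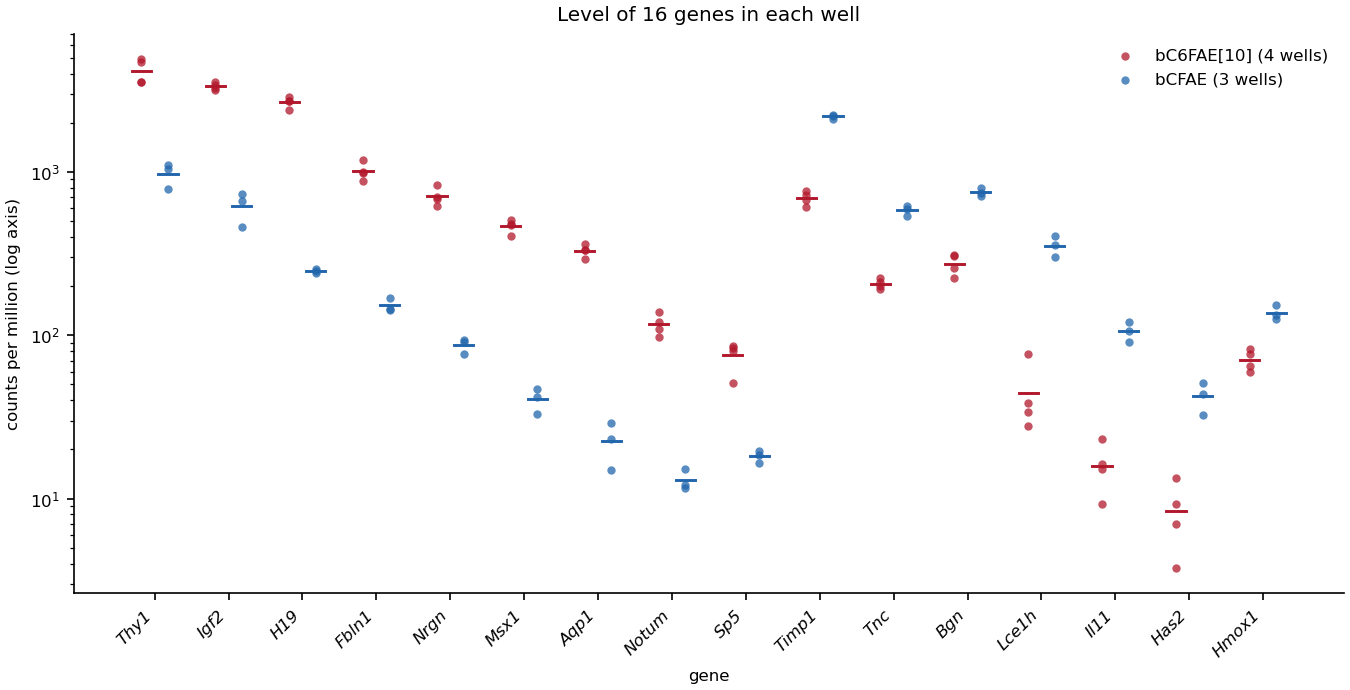
For each of 16 genes along the horizontal axis, the points give the CPM (log axis) of the 4 bC6FAE[10] wells on the left and of the 3 bCFAE wells on the right, and short bars give their means. For each gene shown, every bC6FAE[10] well lies on one side of every bCFAE well, as for Msx1 (403 to 506 CPM in bC6FAE[10] and 33.1 to 46.8 CPM in bCFAE).

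Genes of matrix proteases and their inhibitors changed in both directions, with 8 of 25 tested higher and 6 lower, against 7.59% and 6.06% of all genes. Timp1, which inhibits matrix metalloproteinases, had 669, 728, 763 and 611 CPM in bC6FAE[10] and 2207, 2125 and 2229 CPM in bCFAE, and fell by 1.61 ± 0.15 on the log2 scale (SE; edgeR adjusted p = 2.5e-13). Mmp2, a gelatinase, had 613, 614, 598 and 713 CPM in bC6FAE[10] and 171, 197 and 223 CPM in bCFAE, and rose by 1.75 ± 0.14. The inhibitor was thus lower and the gelatinase higher in every bC6FAE[10] well than in any bCFAE well. Mmp11, whose exons overlap Chchd10, rose by 2.60 ± 0.24.

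Within 1 cluster on chromosome 9, Mmp3 and Mmp10, the stromelysins, fell while the collagenase Mmp13 rose. Mmp3 (chr9:7445822-7455975) had 149, 96.0, 121 and 142 CPM in bC6FAE[10] and 408, 284 and 270 CPM in bCFAE, a log2 fold change of -1.30 ± 0.23 (SE). Mmp10 (chr9:7502352-7510240) had 43.4, 38.4, 25.5 and 51.1 CPM in bC6FAE[10] and 113, 121 and 161 CPM in bCFAE, a log2 fold change of -1.64 ± 0.22. Mmp13 (chr9:7272514-7283331) had 50.9, 65.3, 81.2 and 85.9 CPM in bC6FAE[10] and 25.6, 44.1 and 20.9 CPM in bCFAE, a log2 fold change of 1.18 ± 0.32. None of the 3 overlapped between media, but without the first bCFAE well Mmp13 stood at 1.03 and no longer passed (edgeR adjusted p = 0.0609). Their promoters are shown because all 3 held the motif TGANTCA of AP-1, the FOS and JUN factor, which was searched on both strands of the windows described for Sp5. The windows are chr9:7445572-7445871 for Mmp3, chr9:7502092-7502391 for Mmp10 and chr9:7272264-7272563 for Mmp13, all on the plus strand of GRCm38.p6, and capitals mark the motif.
Mmp3: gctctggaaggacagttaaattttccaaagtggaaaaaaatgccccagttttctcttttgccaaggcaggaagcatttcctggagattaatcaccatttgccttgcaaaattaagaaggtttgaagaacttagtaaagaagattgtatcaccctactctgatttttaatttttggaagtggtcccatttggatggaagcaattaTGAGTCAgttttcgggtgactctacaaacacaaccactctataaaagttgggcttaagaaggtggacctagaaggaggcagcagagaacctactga
Mmp10: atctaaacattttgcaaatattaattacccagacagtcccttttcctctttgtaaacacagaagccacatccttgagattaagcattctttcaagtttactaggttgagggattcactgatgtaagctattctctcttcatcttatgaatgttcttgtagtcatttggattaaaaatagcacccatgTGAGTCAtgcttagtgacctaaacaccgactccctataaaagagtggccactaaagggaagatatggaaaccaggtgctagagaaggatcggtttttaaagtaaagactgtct
Mmp13: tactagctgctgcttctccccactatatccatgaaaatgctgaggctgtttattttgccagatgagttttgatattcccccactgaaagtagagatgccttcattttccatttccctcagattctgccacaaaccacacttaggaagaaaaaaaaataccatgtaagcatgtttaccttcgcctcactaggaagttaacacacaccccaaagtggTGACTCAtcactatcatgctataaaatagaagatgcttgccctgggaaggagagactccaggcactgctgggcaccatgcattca
The motif began at -46 in Mmp3, -63 in Mmp10 and -35 in Mmp13, so the genes that fell and the gene that rose held it alike. Among 19 protease and inhibitor genes with a promoter these were the 3 that held it. Over all promoters the share was 7.93%, over tested genes 4.51%, over genes that rose 4.47% and over genes that fell 9.81%, or 31 of 316.

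Metallothionein and oxidative stress genes fell more often than they rose: of 24 tested, 2 rose and 8 fell. Of all genes, 7.59% rose and 6.06% fell. The 2 rises are thus near the share over all genes. Prdx1, a peroxidase of hydrogen peroxide, had 432, 468, 459 and 362 CPM in bC6FAE[10] and 890, 795 and 693 CPM in bCFAE. Srxn1, which repairs peroxiredoxins, had 52.8, 53.8, 67.3 and 46.4 CPM in bC6FAE[10] and 91.8, 110 and 119 CPM in bCFAE. Heme oxygenase, Hmox1, had 83.0, 59.5, 76.5 and 65.0 CPM in bC6FAE[10] and 132, 127 and 154 CPM in bCFAE. The 3 genes were lower in each bC6FAE[10] well than in any bCFAE well, with log2 fold changes of -0.83 ± 0.12, -0.89 ± 0.19 and -0.88 ± 0.18 (SE). The glutathione enzymes Gsta4 and Gpx3 were the 2 of the list that rose, by 1.12 ± 0.19 and 1.05 ± 0.16. Gsta2, a related gene outside the list, was among the largest rises given above. The promoters of Srxn1 (chr2:152105274-152105573, plus strand) and Prdx1 (chr4:116685349-116685648, plus strand) are shown because each held the AP-1 motif, in capitals, at 2 places, beginning at -102 and -45 in Srxn1 and at -237 and -131 in Prdx1.
Srxn1: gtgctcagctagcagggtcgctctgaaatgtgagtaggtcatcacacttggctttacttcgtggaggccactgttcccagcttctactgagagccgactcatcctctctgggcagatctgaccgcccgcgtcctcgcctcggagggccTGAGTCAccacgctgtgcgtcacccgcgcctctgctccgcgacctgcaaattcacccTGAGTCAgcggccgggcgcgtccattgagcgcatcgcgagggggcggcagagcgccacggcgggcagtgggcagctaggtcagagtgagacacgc
Prdx1: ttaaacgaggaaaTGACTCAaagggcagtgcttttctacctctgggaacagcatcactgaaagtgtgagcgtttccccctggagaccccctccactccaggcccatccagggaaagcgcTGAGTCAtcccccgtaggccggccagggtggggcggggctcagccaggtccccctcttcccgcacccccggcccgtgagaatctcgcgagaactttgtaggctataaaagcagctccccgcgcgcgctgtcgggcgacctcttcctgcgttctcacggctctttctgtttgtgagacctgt
Mt2, whose promoter also held the motif, did not pass the test, and it and these 2 made 3 of the 20 genes of the list with a promoter.

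Of 16 ERK targets and feedback genes tested, 6 fell and 1 rose, where 6.06% of all genes fell and 7.59% rose, so the single rise is near the share over all genes. Hbegf had 15.1, 19.2, 20.9 and 32.5 CPM in bC6FAE[10] and 105, 106 and 90.7 CPM in bCFAE, a log2 fold change of -2.18 ± 0.24 (SE; edgeR adjusted p = 1.2e-10) with no overlap. Il11, described above, stood on this list too. The feedback genes Spry2 (0.44), Etv4 (-0.17) and Etv5 (0.32) did not pass, so the list did not move as 1 group, and its median was -0.17. The 1 gene that rose, Spred1, was not called without the second bC6FAE[10] well or without the second bCFAE well, which left 0.

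TGF-beta response genes moved in both directions, with 4 of 23 tested higher and 5 lower, against 7.59% and 6.06% of all genes. The other 14 were not called. Tgfbi, a secreted matrix protein named for its induction by TGF-beta, had 309, 323, 295 and 307 CPM in bC6FAE[10] and 73.7, 92.3 and 100 CPM in bCFAE. Pmepa1, a feedback inhibitor of the pathway, had 287, 284, 267 and 230 CPM in bC6FAE[10] and 534, 518 and 493 CPM in bCFAE. These 2 targets separated the media in opposite directions, with log2 fold changes of 1.86 ± 0.17 and -0.90 ± 0.12 (SE). Without the first bCFAE well, 3 members fell in place of 5.

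Actin cytoskeleton genes and targets of RhoA and SRF fell in 16 of 37 tested and rose in 2, with a median log2 fold change of -0.40. Of all genes, 6.06% fell and 7.59% rose, so the 2 rises are near the share over all genes. The cytoplasmic actin gene Actg1 had 172, 177, 204 and 139 CPM in bC6FAE[10] and 278, 306 and 312 CPM in bCFAE. Myh9, the heavy chain of nonmuscle myosin, had 134, 115, 114 and 125 CPM in bC6FAE[10] and 212, 252 and 177 CPM in bCFAE. Neither overlapped between media, and they fell by 0.73 ± 0.15 and 0.78 ± 0.15 on the log2 scale (SE). The count of falls depended on the wells and was 9 without the second bCFAE well, and no gene of the list rose without the third.

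The 21 smooth muscle contractile genes tested did not move together: 6 rose and 3 fell against bCFAE, with a median log2 fold change of -0.09. Among all genes, 7.59% rose and 6.06% fell against bCFAE. Acta2, smooth muscle actin (chr19:34241090-34255590), had 1652, 1423, 1554 and 1658 CPM in bC6FAE[10] and 1474, 1314 and 1259 CPM in bCFAE. The 2 ranges overlapped, and the log2 fold change of 0.27 ± 0.14 (SE) did not pass. Myl9, the light chain that switches on contraction, had 466, 378, 464 and 599 CPM in bC6FAE[10] and 256, 260 and 302 CPM in bCFAE. Tagln, an actin-binding marker of the same state whose exons overlap Pcsk7, had 124, 129, 144 and 135 CPM in bC6FAE[10] and 283, 196 and 237 CPM in bCFAE. Myl9 was thus higher and Tagln lower in every bC6FAE[10] well than in any bCFAE well, with log2 fold changes of 0.86 ± 0.15 for Myl9 (SE; edgeR adjusted p = 8.8e-06) and -0.80 ± 0.16 for Tagln. The LIM protein gene Csrp2 rose by 1.35 ± 0.18, and Fhl2 fell by 0.96 ± 0.17. Fhl1 (0.07 ± 0.16) and Cnn1 (0.14 ± 0.23) did not pass. Against bC8FAE, where 633 of all genes (9.06%) were called with 387 (5.54%) higher and 246 (3.52%) lower, 16 of the same 21 genes were higher in bC6FAE[10] and 0 were lower. The fourth bC8FAE well stood apart, with 119295 counts, 1.95% of them mitochondrial and 13.9% from ribosomal protein genes, and without it the 16 were called as before. Mylk, the kinase of the myosin light chain, was not called without the fourth bC6FAE[10] well (2.65; edgeR adjusted p = 0.0774) or without the second bC8FAE well (2.69; edgeR adjusted p = 0.0543). Acta2 averaged 1572 ± 110 CPM in bC6FAE[10] and 130 ± 32.5 CPM in bC8FAE (SD, n = 4 and 5), a log2 fold change of 3.70 ± 0.15 (SE). Actg2, Fhl1 and Myl9 were higher than in bC8FAE by log2 fold changes of 4.04, 3.30 and 2.94. Tagln, lower than in bCFAE, was higher than in bC8FAE by 2.09. The comparisons with bCFAE and bC8FAE share the bC6FAE[10] wells.

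**Figure D3:**
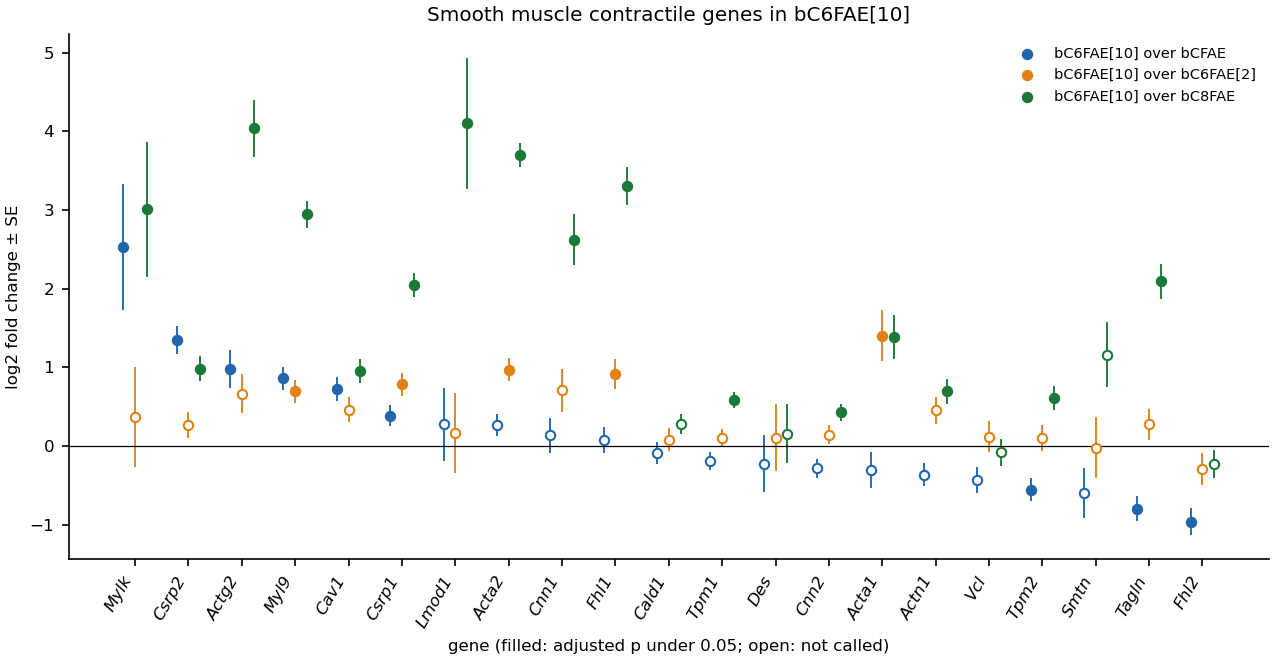
Log2 fold changes of smooth muscle contractile genes for bC6FAE[10] over bCFAE, bC6FAE[2] and bC8FAE; genes run along the horizontal axis, bars are standard errors and filled points passed the test. Over bC8FAE, 16 of 21 genes are filled and above 0, with Acta2 at 3.70 over bC8FAE, 0.97 over bC6FAE[2] and 0.27 over bCFAE.

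Of 26 fibroblast identity markers tested, 13 rose and 4 fell, where 7.59% of all genes rose and 6.06% fell. Thy1, a cell-surface glycoprotein (chr9:44043384-44048579), had 3534, 3546, 4737 and 4906 CPM in bC6FAE[10] and 1038, 789 and 1103 CPM in bCFAE. Twist1, a transcription factor of embryonic mesenchyme, had 289, 298, 227 and 286 CPM in bC6FAE[10] and 104, 79.9 and 69.8 CPM in bCFAE. Both were higher in every bC6FAE[10] well, by log2 fold changes of 2.15 ± 0.17 (SE; edgeR adjusted p = 1.4e-15) and 1.73 ± 0.18. Osr1, an odd-skipped factor of early limb and mesoderm connective tissue, had 33 counts in bC6FAE[10] and 2 in bCFAE, a ratio of bCFAE to bC6FAE[10] of 0.0637 with an interval of 0.00740 to 0.249. The mesenchymal cadherin gene Cdh11 rose by 1.48 ± 0.18. Vimentin, Vim, fell by 0.68 ± 0.12, and the mucin-like membrane protein gene Pdpn fell by 1.45 ± 0.18, so the markers did not all rise. The limb homeobox gene Pitx1, named after its values were seen, had 183, 213, 160 and 237 CPM in bC6FAE[10] and 28.6, 31.7 and 37.2 CPM in bCFAE.

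Of 13 retinoid pathway genes tested, 6 rose and 1 fell. Over all genes the shares were 7.59% and 6.06%, so the single fall is near the share over all genes. Crabp1, which binds retinoic acid in the cytoplasm, had 15002, 13810, 16402 and 16649 CPM in bC6FAE[10] and 7697, 7535 and 9882 CPM in bCFAE. Cyp26b1, which breaks retinoic acid down, had 75.4, 80.6, 60.3 and 90.6 CPM in bC6FAE[10] and 7.52, 4.13 and 4.65 CPM in bCFAE. Stra6, the receptor through which cells take up retinol, had 251, 234, 230 and 237 CPM in bC6FAE[10] and 654, 673 and 609 CPM in bCFAE. None of them overlapped between media: Crabp1 rose by 0.93 ± 0.17 and Cyp26b1 by 3.79 ± 0.39, while Stra6 fell by 1.39 ± 0.12 on the log2 scale (SE).

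**Figure D4:**
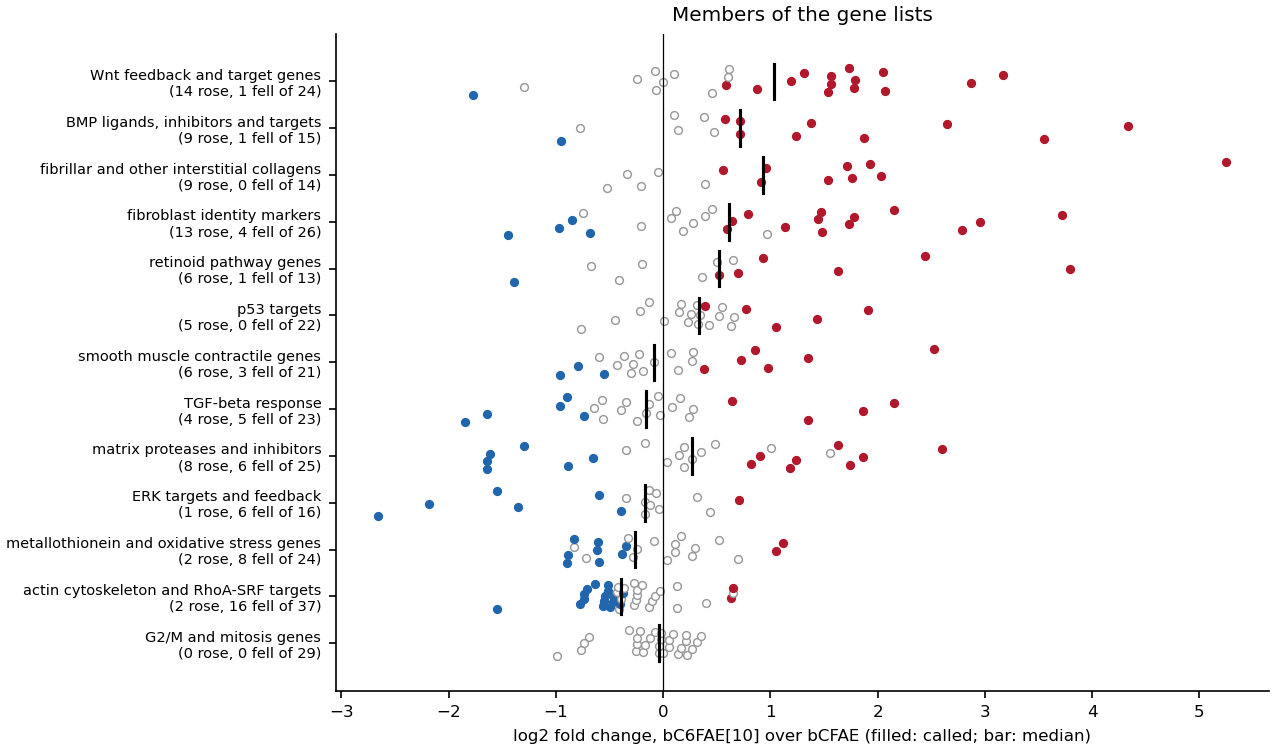
Each point is 1 tested member of a gene list, placed by its log2 fold change, bC6FAE[10] over bCFAE, on the horizontal axis; filled points passed the test and black bars are list medians. The median of the Wnt list lies at 1.03 and that of the actin cytoskeleton list at -0.40.

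For the lists that follow, the shares over all genes were 7.59% higher and 6.06% lower. None of 29 G2/M and mitosis genes tested passed in either direction, with a median log2 fold change of -0.04, although 1 fell without the second bC6FAE[10] well and 1 without the third bCFAE well. Of 31 DNA replication genes, 2 rose and 1, the ribonucleotide reductase subunit gene Rrm2, fell by 0.58 ± 0.15 on the log2 scale (SE); these are 6.45% and 3.23% of the list. Of 71 nuclear-encoded respiratory chain genes, 2 rose and 0 fell. Of 13 YAP targets, the receptor kinase gene Axl alone passed, with 141, 129, 123 and 142 CPM in bC6FAE[10] and 355, 387 and 305 CPM in bCFAE, and 1 of 13 is also near the share over all genes. Adhesion and cell surface genes were split, with 6 of 26 higher and 7 lower: the collagen receptor subunit gene Itga1 rose by 1.91 ± 0.38, and Itgb1, the common beta subunit, fell by 0.96 ± 0.12. Of 22 p53 targets tested, 5 rose and 0 fell, among them Pmaip1, a pro-apoptotic gene, by 1.43 ± 0.34. Of 18 chemokine and inflammatory genes tested, 4 rose and 1 fell, with a median log2 fold change of -0.02. The single fall is near the share over all genes. The chemokine genes Ccl7 and Cxcl14 rose by 1.29 ± 0.19 and 1.34 ± 0.24, although reads of Ccl7 may be shared with its near copies. The chemokine gene Pf4, among the largest falls above, went the other way. The interferon-induced membrane protein gene Ifitm1 had 234, 321, 234 and 183 CPM in bC6FAE[10] and 21.1, 31.7 and 44.2 CPM in bCFAE, a log2 fold change of 3.02 ± 0.36, while 2 of the 9 genes tested on its list rose.

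Between bC6FAE[10] and bC6FAE[2], 29 of 6985 genes (0.415%) were called, 19 (0.272%) higher and 10 (0.143%) lower in bC6FAE[10], and 544 had an unadjusted p under 0.05. Of the 530 genes that rose against bCFAE, 15 were also higher than in bC6FAE[2], and of the 423 that fell, 6 were also lower. Both comparisons share the bC6FAE[10] wells, so agreement in direction is partly built in. Acta2 had 1652, 1423, 1554 and 1658 CPM in bC6FAE[10] and 741, 770 and 835 CPM in bC6FAE[2], a log2 fold change of 0.97 ± 0.15 (SE; edgeR adjusted p = 4.6e-05). Mmp3 had 149, 96.0, 121 and 142 CPM in bC6FAE[10] and 402, 326 and 322 CPM in bC6FAE[2], a log2 fold change of -1.51 ± 0.23 (SE; edgeR adjusted p = 4.6e-05). Spp1, the secreted phosphoprotein osteopontin, had 1382, 1350, 1157 and 1145 CPM in bC6FAE[10], 2916, 2523 and 2346 CPM in bC6FAE[2], and 3007, 3380 and 2901 CPM in bCFAE. It was lower than in bC6FAE[2] by 1.08 on the log2 scale and in each bC6FAE[10] well. Mcpt8 was lower than in bC6FAE[2] as well, at -1.24 ± 0.25. These 4 genes passed under each of the 14 alternative settings run for this comparison, and the other 25 did not. Msx1, at 0.84 ± 0.17 over bC6FAE[2], stood at 0.75 without the second bC6FAE[2] well (edgeR adjusted p = 0.0957). The count of called genes was 8 without the first or without the second bC6FAE[2] well, and 18 without the third or without the fourth bC6FAE[10] well. It was 49 without the low-total wells of other media, MEF 3 and bC8FAE 4, and 90 when only the wells of the 2 media were fitted. H19 (0.25), Igf2 (0.43) and Thy1 (0.38) did not pass against bC6FAE[2].

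Across the media of the plate, bC6FAE[10] held the highest mean level of Msx1 and Thy1, with no test made over all media. Msx1 averaged 464 ± 43.6 CPM in bC6FAE[10], 251 ± 33.4 CPM in bC6FAE[2], 290 ± 92.1 CPM in bC8FAE and, at the low end, 40.6 ± 6.95 CPM in bCFAE (SD, n = 4, 3, 5 and 3). The difference in Msx1 between bC6FAE[2] and bC8FAE was not tested. Timp1 ran the other way, with 693 ± 66.9 CPM in bC6FAE[10], 1012 ± 49.6 CPM in bC6FAE[2], 1403 ± 333 CPM in bC8FAE and 2187 ± 54.8 CPM in bCFAE. Against bC8FAE, Timp1 was lower in bC6FAE[10] by 1.03 on the log2 scale and Igf2 was higher by 2.21. Lce1h averaged 44.2 ± 22 CPM in bC6FAE[10], 39.1 ± 4.96 CPM in bC6FAE[2], 40.8 ± 16.4 CPM in bC8FAE and 354 ± 51.6 CPM in bCFAE, so bCFAE alone of these 4 stood apart. Of the 530 genes that rose against bCFAE, 196 were also higher and 3 lower than in bC8FAE, and of the 423 that fell, 84 were also lower and 15 higher; these comparisons share the bC6FAE[10] wells.

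**Figure D5:**
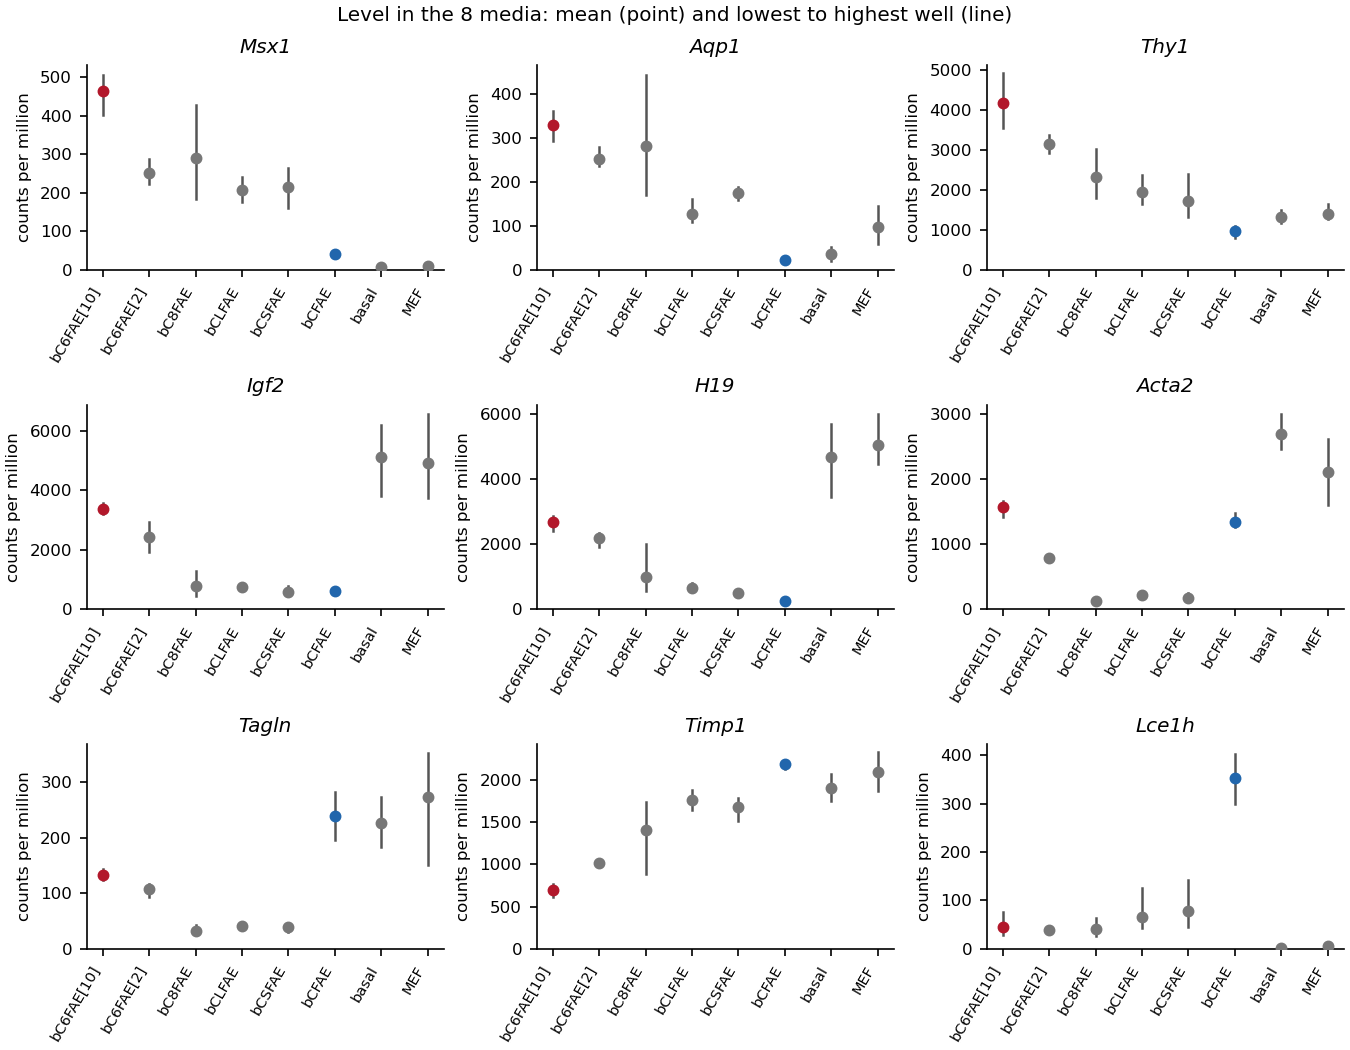
Levels of 9 genes in CPM in the 8 media of the plate; points are means over wells and lines run from the lowest to the highest well. By mean, Msx1 and Thy1 are highest in bC6FAE[10], Lce1h is highest in bCFAE (300.2 to 403 CPM), and Acta2 in bC6FAE[10] (1423 to 1658 CPM) lies far above bC8FAE (94.9 to 176 CPM).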

How the data were processed

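Gene counts per well were deposited by the authors as 1 table of raw counts with 274 columns and 20471 genes. Per the submitters' processing notes, reads were aligned with STAR to mm10. Its version, how reads were assigned to genes and strands, the gene models, and whether molecular identifiers were collapsed are not given in the sources available. Wells were grouped by their column names. The table has 242 columns that were not used. Of its gene names, 26 have the form of dates (12 of them tested) and are not named here; some other genes of the lists are counted but not reported by name.

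One edgeR 4.0.16 fit (R 4.3.3, limma 3.58.1; TMM scaling, quasi-likelihood F-test, filterByExpr with a minimum count of 10) covered the 30 media wells, and contrasts were taken of bC6FAE[10] minus bCFAE, bC6FAE[2] and bC8FAE. P-values were adjusted by Benjamini-Hochberg over 6985 genes, and genes under 0.05 were called. CPM values are counts scaled to the well's total, without TMM factors. The script was tested on simulated data. The median log2 fold change of all genes was within 0.01 of 0 in each contrast. Alternatives were DESeq2 1.42.0, other scaling, filters and sets of wells, a block on the well number, and leaving out each well.

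Named genes were the 12 largest rises and 12 largest falls that were called, averaged 10 CPM or more over the 7 wells and had wells that do not overlap, and up to 4 called members of each of 45 gene lists; 49 further genes, such as H19, Timp1, Mmp3, Nkd1, Crabp1, Wnt4 and Pitx1, were named after their values were seen, as were members given only for not passing. The members and lists were chosen with earlier results of these data known. Coordinates are GENCODE vM21 on mm10. The fit had no block on the well number. Wells of 1 medium differed by more than counting noise, with a chi-square over its degrees of freedom of 1.15 to 1.71; this does not show whether they were separate cultures.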

Additional observations from a re-analysis of the deposited data

Results flagged for a closer look

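In 186 groups of values over the 4 bC6FAE[10] wells, for named genes and the total count, 8 wells stood apart from the other 3 by more than Dixon's 95% critical value for the gap allows, an event that chance gives in about 1 in 20 groups. The low wells were the first for Adamts15 (13.2 CPM against 25.5 to 26.9 CPM) and Sp5 (50.9 CPM against 80.6 to 85.9 CPM), the third for Tap1 (25.5 CPM against 39.5 to 40.3 CPM) and Twist1 (227 CPM against 286 to 298 CPM), and the second for Csrp1 (265 CPM against 304 to 311 CPM). The high wells were the second for Id3 (2607 CPM against 2340.3 to 2359 CPM), and the fourth for Mmp2 (713 CPM against 598 to 614 CPM) and Itgb1 (469 CPM against 436 to 438 CPM). The flags fell on each of the 4 wells.

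Wells named nocell, which enter no comparison, held counts: the second had 4280 and the third 25308 in total, which is 0.953% and 5.64% of the median media well. Their counts correlated over genes with the bC6FAE[10] mean by Spearman coefficients of 0.449 and 0.698. Where these counts came from was not tested, nor was their bearing on genes with few counts in 1 medium.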

How the results depend on the processing

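Against bCFAE, the 953 called genes numbered 809 with DESeq2, 984 without a filter, 1121 with only the wells of the 2 media and 731 to 836 with a well left out. Of 176 called genes named by the rule or added, 36 lost their call under at least 1 of 14 alternatives and 140 under none; 132 of these had a value under every alternative, and 8 were filtered out of at least 1. Of the genes named, 3 that were not called turned sign with a well left out, at values near 0: Grb10 ran from -0.0905 to 0.23, Ndn from -0.12 to 0.076 and Cnn1 from -0.013 to 0.25. Against bC6FAE[2], the 29 calls (19 higher, 10 lower) became 49 (31 and 18) without the low-total wells MEF 3 and bC8FAE 4, 90 (50 and 40) with only the 2 media, and 8 to 30 (4 to 23 higher, 3 to 8 lower) with a well left out; without a filter 31 were higher. Against bC8FAE, lower calls ran from 162 to 295 with a well left out. With a block on the well number the calls were 952 against bCFAE, 81 (48 higher, 33 lower) against bC6FAE[2] and 343 (222 and 121) against bC8FAE, where 12 of the 14 contractile genes still tested kept their call and Cnn2 and Tpm2 did not. Same-numbered wells of bC6FAE[10] and bCFAE correlated by 0.061, 0.032 and 0.0024 in their deviations, under the 0.1 taken to show pairing, although each well of bC6FAE[10] and bCFAE that shared a number correlated best with its own number, a hint from the data only. The causes were not tested. Genes with few counts are limited by depth, with 430659 counts in the smallest bC6FAE[10] well.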
